A study of Homo sapiens with 8 samples.

Results

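The 10 genes described here encode secreted inflammatory proteins and the machinery of the transcription factor NF-κB, and were chosen by name among the 60230 genes of the count table. CXCL8, CCL20, IL11, LIF and CSF1 encode cytokines and chemokines, ICAM1 encodes an adhesion molecule, RELB an NF-κB subunit, NFKBIA and TNFAIP3 inhibitors of the pathway, and BIRC3 a ubiquitin ligase of the same pathway. The RNA came from HepG2 cells, a human liver cancer line, that overexpressed the drug-metabolising enzyme CYP2C19 and were kept under blasticidin, which selects for the transgene, in all 4 groups alike. The cells received 0.2% DMSO, compound 4 ("metylcresol" in the labels, a pair of cresol rings with tert-butyl groups joined by a methylene bridge), compound 5 ("tetrabut", a pair of phenol rings with more tert-butyl groups joined through ethane) or compound 6 ("cyclohexil", built like compound 4 with cyclohexyl in place of tert-butyl), which are phenolic antioxidants used in plastics. Each compound was given at its own half-maximal inhibitory concentration, so the molar concentrations were not identical, and the cells were harvested after 24 h. Each group had 2 replicates, which the labels call day 1 and day 2, and whether these were separate cultures is not stated, so the p-values measure the spread between these samples only.

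NF-κB is a family of dimeric transcription factors that inhibitory IκB proteins hold in the cytoplasm. Signals from tumour necrosis factor, interleukin and Toll-like receptors activate a kinase complex that marks IκB for degradation, and the released dimers switch on chemokines, cytokines, adhesion molecules and, as negative feedback, their own inhibitors. In the liver this pathway drives the acute response to injury and infection, and hepatocytes themselves secrete chemokines that attract leukocytes. On GRCh38 (GENCODE 29) the genes lie, as protein-coding loci, with CXCL8 at chr4:73740506-73743716, CCL20 at chr2:227805739-227817564, IL11 at chr19:55364389-55370463, LIF at chr22:30240447-30246851, CSF1 at chr1:109910242-109930992 and ICAM1 at chr19:10270835-10286615. The NF-κB genes lie with RELB at chr19:45001430-45038198, NFKBIA at chr14:35401511-35404749, TNFAIP3 at chr6:137867188-137883312 and BIRC3 at chr11:102317450-102339403.

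The 8 libraries held between 9791659 and 17814595 counts (median 11108659.5). A total of 13400 genes had enough counts to be tested, among them all 10 members, although CXCL8 and IL11 passed this filter only through the groups in which they were high. Levels are given as CPM, the count scaled to the TMM-adjusted library size, for replicate 1 and then replicate 2, and differences as log2-fold changes. A gene was called changed where the Benjamini-Hochberg adjusted p of edgeR's quasi-likelihood test, adjusted over all genes tested, was under 0.05. CYP2C19 was detected in every library at 16.4 to 52.8 CPM, and 8 of 8 hepatocyte markers were detected, with summed levels of 50400 to 54300 CPM with DMSO and 34700 to 44500 CPM with the compounds. The part of this difference in the results below was not tested, and in bulk RNA fewer cells of a kind and less RNA per cell cannot be told apart. Of 9 leukocyte and macrophage markers, PTPRC, TYROBP, CD163, CD3E and CSF1R were at 0 in all 8 libraries, and 6 of 9 had under 10 counts throughout. The list was summed at 1840 to 2170 CPM with DMSO, 1380 to 1830 CPM with compound 4, 1600 to 1760 CPM with compound 5 and 1570 to 1870 CPM with compound 6, nearly all of it from LYZ.

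Promoter windows of 250 bases before the RefSeq transcription start (GRCh38.p14) were found for 7 of the 10 members, and not for RELB, LIF and CSF1. A set of 5 are shown because their genes cover the range of responses below, from CXCL8, CCL20 and ICAM1, which were higher with compound 5, to BIRC3, which fell, and NFKBIA, which did not pass the test. Capitals mark matches to the κB consensus, to GGAATTTCC, a shorter κB variant picked after these promoters were seen, or to TGANTCA, the AP-1 motif, on either strand. Bases inside exons of the GENCODE annotation were left out, except for ICAM1, whose window lies within an annotated exon and is shown only around its match. The regions are, in the order of the lines, chr4:73740319-73740505 (plus strand), chr2:227813592-227813821 (plus), chr19:10270924-10270952 (plus), chr11:102317234-102317449 (plus) and chr14:35404750-35404999 (minus), each written 5′ to 3′.
CXCL8: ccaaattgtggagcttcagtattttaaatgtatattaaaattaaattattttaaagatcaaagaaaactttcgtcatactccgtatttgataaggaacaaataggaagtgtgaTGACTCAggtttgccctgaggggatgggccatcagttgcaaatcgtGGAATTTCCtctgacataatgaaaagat
CCL20: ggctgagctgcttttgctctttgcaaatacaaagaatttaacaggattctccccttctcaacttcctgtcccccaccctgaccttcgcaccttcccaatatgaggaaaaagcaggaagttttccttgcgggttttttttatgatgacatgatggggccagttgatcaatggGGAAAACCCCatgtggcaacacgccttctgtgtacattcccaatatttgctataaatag
ICAM1: gctttagcttGGAAATTCCggagctgaag
BIRC3: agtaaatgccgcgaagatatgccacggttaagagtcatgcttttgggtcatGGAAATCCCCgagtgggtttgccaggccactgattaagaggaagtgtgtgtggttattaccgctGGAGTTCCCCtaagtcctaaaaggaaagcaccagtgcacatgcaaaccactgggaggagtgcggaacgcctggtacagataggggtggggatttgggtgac
NFKBIA: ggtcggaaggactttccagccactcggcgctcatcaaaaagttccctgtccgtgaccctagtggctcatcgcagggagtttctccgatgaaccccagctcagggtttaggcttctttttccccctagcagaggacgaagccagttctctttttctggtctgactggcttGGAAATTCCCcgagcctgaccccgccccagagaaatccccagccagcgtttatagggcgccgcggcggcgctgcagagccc

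The κB consensus was matched in 4 of the 7 windows (CCL20, NFKBIA, TNFAIP3 and BIRC3), against 9.96% of 35116 RefSeq promoter windows of the same length. Since the genes were chosen as inflammatory and NF-κB genes, nothing is read from this difference. TGANTCA was matched in CXCL8 and IL11, against 6.57% of all windows. GGAATTTCC was matched in CXCL8, ICAM1 and NFKBIA, where it overlaps the consensus. It occurs in 0.413% of all windows, but since it was picked from these promoters nothing is read from that share. In CXCL8 the κB variant lay at positions -91 to -83 from the start and the AP-1 motif at -137 to -131. TNFAIP3 and BIRC3 each held a pair of κB matches, which began at positions -67 and -55 in TNFAIP3 and at -199 and -135 in BIRC3, and the match of NFKBIA began at -81. A match describes letters only, and BIRC3 and CCL20, which moved in opposite directions with compound 5, both held κB matches.

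**Figure D1:**
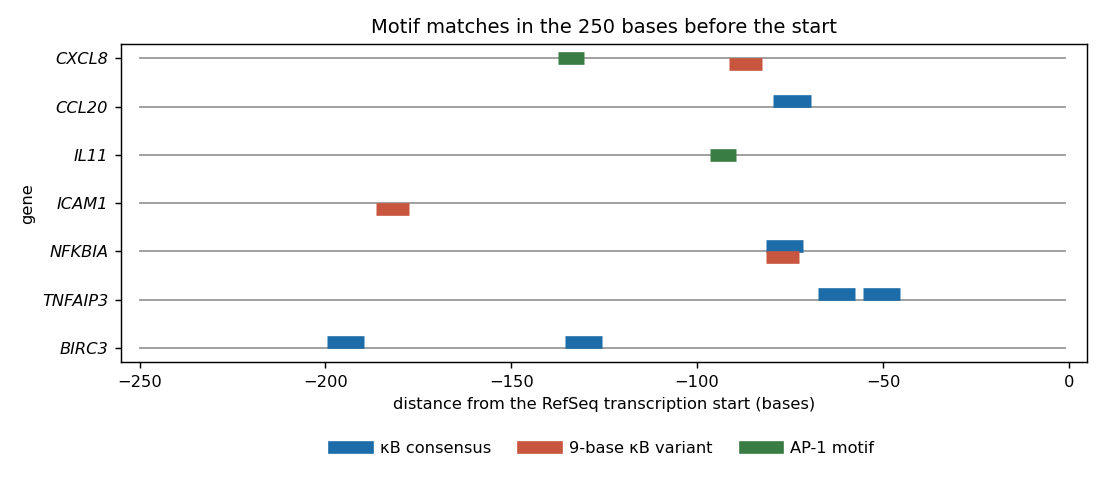
Positions of motif matches (coloured bars) in the 250 bases before the RefSeq transcription start of 7 genes, with the distance from the start in bases on the horizontal axis. The κB consensus is matched in CCL20, NFKBIA, TNFAIP3 and BIRC3, the 9-base variant in CXCL8, ICAM1 and NFKBIA, and the AP-1 motif in CXCL8 and IL11.

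The first question was how each compound changed these genes against DMSO. CXCL8 and IL11 passed the filter only through the groups in which they were high, so the counts are given for the other 8 members. With compound 4, 4 of these 8 rose and 0 fell, against 9.51% of all genes tested that were called (5.6% higher and 3.91% lower). With compound 5, 4 rose and 1 fell, against 8.3% of all genes (5.35% higher and 2.95% lower). With compound 6, CSF1 alone rose, against 0.575% of all genes (0.493% higher and 0.0821% lower). The median log2-fold change of the 8 was 0.59, 0.58 and 0.61 with compounds 4, 5 and 6, beside 0.01, 0 and 0.02 over all genes tested. The members were chosen with earlier results of these data known, so their contrast with all genes is a description. With compound 6, 6 of the 8 had an unadjusted p under 0.05, as did 18.6% of all genes tested. The 3 comparisons share the DMSO libraries and are not independent. In the plot of CPM by library, the DMSO points of CCL20, LIF, CSF1, ICAM1 and RELB lie below all points of the compounds. The share of all genes separated in this way was not computed, so this is a description.

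**Figure D2:**
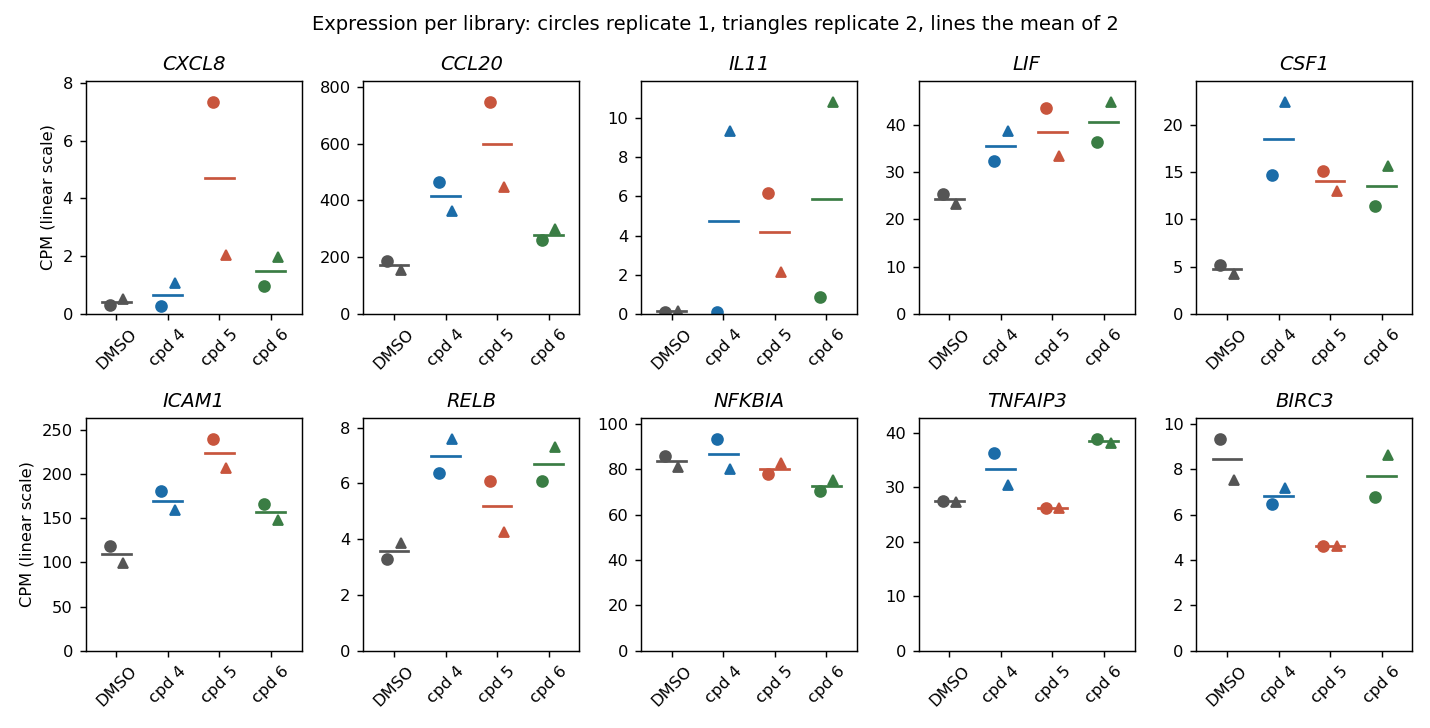
Expression in CPM (linear scale from 0) of the 10 genes in each of the 8 libraries, with circles for replicate 1, triangles for replicate 2 and a line at the mean of 2. CSF1 is at 4.19 to 5.23 CPM with DMSO and at 11.4 CPM or more with each compound, whereas IL11 spreads from 0.0938 to 9.35 CPM between the replicates of compound 4.

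CSF1 was the member called with every compound. It encodes the growth factor that keeps macrophages alive and dividing. CSF1 was at 5.23 and 4.19 CPM with DMSO, 14.7 and 22.4 CPM with compound 4, 15.1 and 13 CPM with compound 5, and 11.4 and 15.7 CPM with compound 6. The groups of treated cells did not overlap with DMSO. CSF1 rose 3.88-fold with compound 4 (log2 1.96 ± 0.26, SE, edgeR adjusted p = 0.0043), 2.92-fold with compound 5 (1.55, adjusted p = 0.011) and 2.83-fold with compound 6 (1.5, adjusted p = 0.048). In a fit with the replicate number as a block, the rise with compound 6 was no longer called (edgeR adjusted p = 0.055). The gene was at 50 and 51 counts in the DMSO libraries, the lowest of the 8.

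CCL20, a chemokine that attracts dendritic cells and lymphocytes carrying the receptor CCR6, had the highest level per length of the 10 members in every group, from 107 CPM per kilobase of exon with DMSO to 375 with compound 5. CCL20 was at 186 and 156 CPM with DMSO, 466 and 362 CPM with compound 4, 746 and 449 CPM with compound 5, and 260 and 299 CPM with compound 6. All treated libraries exceeded both DMSO libraries, and replicate 1 of compound 5 stood highest. CCL20 rose 2.42-fold with compound 4 (log2 1.27 ± 0.22, edgeR adjusted p = 0.011) and 3.49-fold with compound 5 (1.8 ± 0.23, adjusted p = 0.0047). With compound 6 the log2-fold change was 0.71 (95% interval 0.21 to 1.2), which did not pass the threshold (edgeR adjusted p = 0.14). It was called by DESeq2 (adjusted p = 0.016) and with only the 4 samples compared (edgeR adjusted p = 0.012).

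CXCL8 encodes the main neutrophil-attracting chemokine and had few counts without treatment. It had 3 and 6 counts with DMSO (0.307 and 0.502 CPM), 3 and 14 with compound 4 (0.281 and 1.06 CPM), 89 and 36 with compound 5 (7.33 and 2.05 CPM), and 10 and 21 with compound 6 (0.981 and 1.99 CPM). Both compound 5 libraries lay above all others, and replicate 1 was well above replicate 2. The fitted log2-fold change with compound 5 was 3.04 (95% interval 1.46 to 4.62, edgeR adjusted p = 0.033). Since CXCL8 was tested only because it was high in some groups, this p is given as a description, and with at least 10 counts required in every sample the gene was not tested. The summed counts gave a ratio of 10.1 (95% exact binomial interval 5.17 to 22.7, counting error only) against the 9 counts of DMSO. Without compound 5 replicate 1 the log2-fold change was 1.93 and the call was lost (edgeR adjusted p = 0.21). The call was also lost without DMSO replicate 1 (2.83, adjusted p = 0.16) or DMSO replicate 2 (3.33, adjusted p = 0.17). Compounds 4 and 6 gave log2-fold changes of 0.58 (interval -1.13 to 2.29) and 1.52 (-0.15 to 3.19), neither of them called.

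IL11, a cytokine of the interleukin 6 family, showed the widest range of group means among the members, and none of its comparisons passed the test. It had 1 and 2 counts with DMSO (0.102 and 0.167 CPM), 1 and 123 with compound 4 (0.0938 and 9.35 CPM), 75 and 38 with compound 5 (6.17 and 2.16 CPM), and 9 and 114 with compound 6 (0.883 and 10.8 CPM). Replicate 1 of compound 4 was at the DMSO level while replicate 2 was among the highest of all libraries. The log2-fold changes were 4.05 (95% interval 0.46 to 7.64), 3.8 (0.18 to 7.41) and 4.31 (0.72 to 7.9) with compounds 4, 5 and 6, with edgeR adjusted p of 0.14, 0.16 and 0.19. Without compound 4 replicate 2 the first became -0.22, and without compound 6 replicate 2 the last became 1.8. Against 3 counts in the 2 DMSO libraries, the ratios of summed counts were 37.7 (95% exact binomial interval 12.6 to 185), 27.5 (9.17 to 135) and 42.9 (14.3 to 211), which cover counting error only. Without the filter on low counts IL11 was called with all 3 compounds (edgeR adjusted p of 1.7e-20, 7.2e-18 and 5.9e-23). In that fit the calls over all genes also rose, from 1275, 1112 and 77 to 2383, 2431 and 1355. With only the 4 samples compared IL11 was called with compound 5 (edgeR adjusted p = 0.023). With replicates as far apart as 1 and 123 counts, these p are given as a description only.

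LIF, of the same cytokine family and an inducer of the hepatic acute-phase response, was at 25.4 and 23.2 CPM with DMSO, 32.4 and 38.8 CPM with compound 4, 43.6 and 33.5 CPM with compound 5, and 36.3 and 44.8 CPM with compound 6. Every treated library was above both DMSO libraries. LIF rose 1.58-fold with compound 5 (log2 0.66, 95% interval 0.27 to 1.04, edgeR adjusted p = 0.047), a call lost with the replicate block (adjusted p = 0.051) and with only the 4 samples compared (0.061). With compounds 4 and 6 the log2-fold changes were 0.55 (0.16 to 0.94, edgeR adjusted p = 0.075) and 0.74 (0.35 to 1.12, adjusted p = 0.079). LIF was called with compound 6 by DESeq2 (adjusted p = 0.018) and, where only the 4 samples compared were fitted, with compounds 4 and 6 (edgeR adjusted p = 0.043 and 0.018). LIF shares exon positions on the other strand with LIF-AS1 and AC004264.1, whose reads could have entered its count.

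ICAM1, a surface ligand through which leukocytes adhere, was at 119 and 99.2 CPM with DMSO, 181 and 159 CPM with compound 4, 240 and 207 CPM with compound 5, and 166 and 148 CPM with compound 6. The 3 treated groups lay above DMSO without overlap, and both compound 5 libraries were the highest. ICAM1 rose 1.56-fold with compound 4 (log2 0.64 ± 0.13, edgeR adjusted p = 0.019) and 2.04-fold with compound 5 (1.03 ± 0.13, adjusted p = 0.0047). With compound 6 the log2-fold change was 0.52 (95% interval 0.22 to 0.82, edgeR adjusted p = 0.098). It was called with the replicate block (edgeR adjusted p = 0.047), with only the 4 samples compared (0.033) and by DESeq2 (adjusted p = 0.021). AC011511.2 and AC011511.5 overlap ICAM1 on the other strand.

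**Figure D3:**
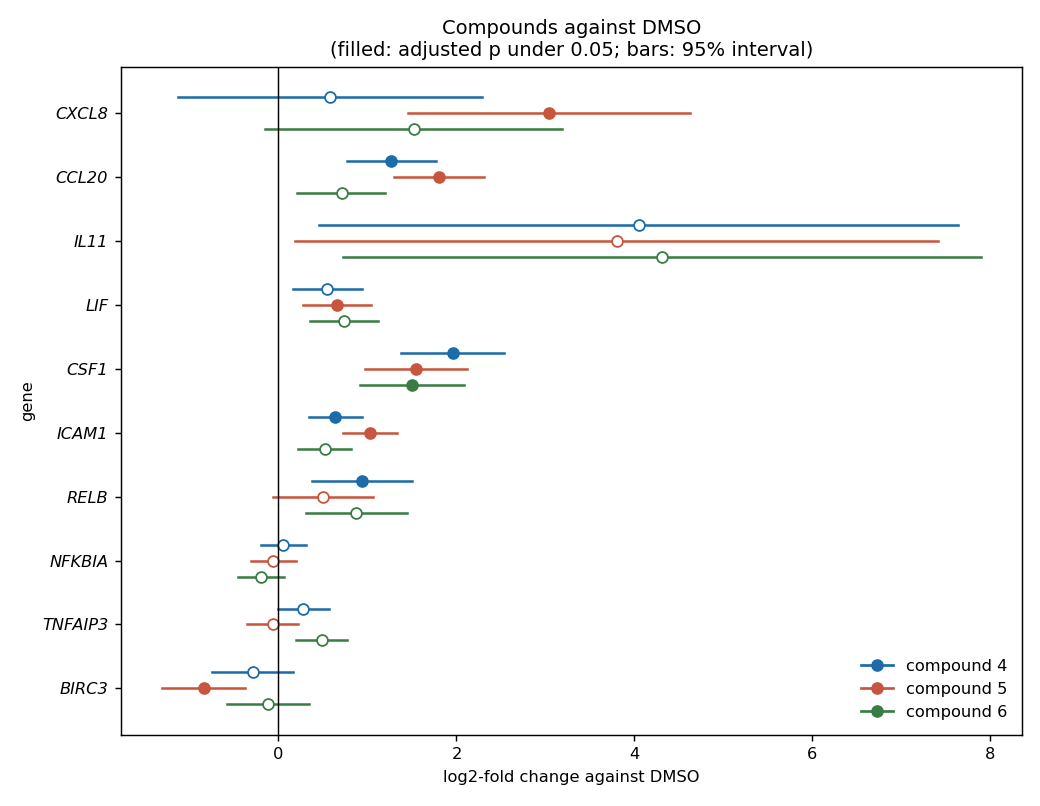
Log2-fold change of each gene with each compound against DMSO (points) with its 95% interval (bars), filled where the adjusted p is under 0.05. CSF1 is filled for all 3 compounds, BIRC3 lies below 0 and is filled with compound 5, and the widest bars are those of IL11.

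RELB, the subunit of the non-canonical NF-κB pathway, was at 3.28 and 3.85 CPM with DMSO, 6.38 and 7.6 CPM with compound 4, 6.09 and 4.27 CPM with compound 5, and 6.08 and 7.3 CPM with compound 6. The treated libraries all exceeded DMSO, the second of compound 5 only slightly. RELB rose 1.92-fold with compound 4 (log2 0.94, 95% interval 0.38 to 1.5, edgeR adjusted p = 0.045), a call that DESeq2 did not make (adjusted p = 0.11). The changes with compounds 5 and 6 were 0.5 (-0.06 to 1.06, edgeR adjusted p = 0.22) and 0.87 (0.31 to 1.44, adjusted p = 0.12).

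Of the other subunits, NFKB1, NFKB2, REL and RELA, 0 of 4 passed the test with any compound (9.51%, 8.3% and 0.575% of all genes were called). Their log2-fold changes lay between -0.64 (REL with compound 4, 95% interval -1.19 to -0.09, edgeR adjusted p = 0.13) and 0.42 (NFKB2 with compounds 5 and 6, adjusted p = 0.11 and 0.18). RELA, the main activating subunit, was at 69 and 58.8 CPM with DMSO and at 64.8 to 85.5 CPM with the compounds. The ranges of RELA with compounds 4 and 6 overlapped that of DMSO. CHUK and IKBKB, the catalytic kinases that act on IκB, had log2-fold changes of 0.21 to 0.37, none of them called.

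NFKBIA and TNFAIP3, the inhibitors among the members, had the narrowest ranges of group means. NFKBIA, the IκB protein that NF-κB itself induces, was at 85.8 and 81.3 CPM with DMSO, 93.5 and 80.1 CPM with compound 4, 78 and 82.7 CPM with compound 5, and 70.4 and 75.4 CPM with compound 6. Its group means spanned 0.25 on the log2 scale, the narrowest range of the 10. The log2-fold changes of NFKBIA were 0.05 (95% interval -0.2 to 0.31), -0.06 (-0.31 to 0.2) and -0.2 (-0.45 to 0.06) with compounds 4, 5 and 6, so that a rise above 0.31 lay outside each interval. TNFAIP3, a ubiquitin-editing enzyme that ends NF-κB signalling, was at 27.5 and 27.4 CPM with DMSO, 36.4 and 30.5 CPM with compound 4, 26.3 and 26.2 CPM with compound 5, and 38.9 and 38.1 CPM with compound 6. Replicates of TNFAIP3 were close, and compounds 4 and 6 lay above DMSO while compound 5 lay just below. The changes were 0.28 (0 to 0.57, edgeR adjusted p = 0.18), -0.06 (-0.35 to 0.22) and 0.49 (0.2 to 0.77, adjusted p = 0.1). TNFAIP3 was called with compound 6 where only the 4 samples compared were fitted (edgeR adjusted p = 0.038). AL357060.1 overlaps TNFAIP3 on the other strand.

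BIRC3, a ubiquitin ligase that restrains cell death downstream of tumour necrosis factor receptors, was the member that fell. It was at 9.33 and 7.54 CPM with DMSO, 6.47 and 7.15 CPM with compound 4, 4.61 and 4.61 CPM with compound 5, and 6.77 and 8.62 CPM with compound 6. The compound 5 libraries were the lowest, and those of compound 6 overlapped DMSO. BIRC3 fell with compound 5 (log2 -0.84, 95% interval -1.31 to -0.38, edgeR adjusted p = 0.038), with no call by DESeq2 (adjusted p = 0.089) or in the fit of the 4 samples compared (edgeR adjusted p = 0.064). With compounds 4 and 6 the changes were -0.29 (-0.75 to 0.16) and -0.12 (-0.58 to 0.34).

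The number of members called depended on single libraries, as did the number called over all genes. These shifts are therefore not read as particular to the members. Without DMSO replicate 2, 0 members were called with any compound, although all genes called also dropped to 43, 46 and 2 with compounds 4, 5 and 6. Without DMSO replicate 1 the counts were 3, 2 and 0. With compound 4, 2 members (CCL20 and CSF1) were called when either of its own libraries was left out. With compound 5, CCL20 and ICAM1 were called without its replicate 1. With compound 6, 0 were called without its replicate 2 and 3 (CCL20, CSF1 and LIF) when either compound 5 library was left out. The rise of RELB with compound 4 kept its call only when a library of compound 5 was left out, and was 0.81 to 1.06 where the call was lost. The fall of BIRC3 with compound 5 was -0.99 to -0.7 and not called when any DMSO or compound 5 library was left out. The rise of LIF with compound 5 stayed called only without compound 4 replicate 2 or compound 5 replicate 2, and was 0.45 to 0.71 elsewhere. CSF1 lost its call with compound 5 without either DMSO library or compound 5 replicate 1 (1.4 to 1.69), and with compound 6 without either DMSO library or compound 6 replicate 2 (1.26 to 1.65). ICAM1 with compound 4 was 0.51 to 0.73 and not called without DMSO replicate 2 or either compound 4 library. The calls of CCL20 with compounds 4 and 5, of CSF1 with compound 4 and of ICAM1 with compound 5 were lost without DMSO replicate 2 only, where they were 1.15, 1.68, 1.8 and 0.91. The fit that leaves out a library assumes that the remaining one of its group varies like the other groups.

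Around the members, 104 further genes of NF-κB and cytokine signalling were listed, of which 18 were at 0 in all libraries and 69 were tested. Of these, 13 rose and 0 fell with compound 4 (18.8% called, beside 9.51% of all genes) and 11 rose and 0 fell with compound 5 (15.9%, beside 8.3%). With compound 6, 0 were called by edgeR, beside 0.575% of all genes. DESeq2 called 8 of the 68 it tested, but over all genes it also called more than edgeR, 518 against 77. In edgeR an unadjusted p under 0.05 was found for 23 of the 69, and for 2490 of the 13400 genes tested. The median log2-fold changes of the 69 were 0.13, 0.17 and 0.21. They include SOCS3, which passed the filter only through the treated groups. The lists were chosen with earlier results of these data known, so their contrast with all genes is a description. Many secreted factors of the list had no counts. CXCL1, CXCL6, CXCL10, CXCL11, CCL2, CCL5, IL1A, IL1B, IL6 and CSF2 were at 0 in every library, and TNF had at most 1 count. CXCL16, a membrane-bound chemokine, rose with compound 4 (log2 0.68, edgeR adjusted p = 0.012). Without DMSO replicate 2 the counts of the 69 or 70 genes tested were 1, 1 and 0 higher, and without DMSO replicate 1 they were 9, 4 and 0. Compound 4 had 5 higher and 1 lower without its replicate 2, and compound 5 had 3 without its replicate 1 and 17 without its replicate 2. With the replicate block compounds 4, 5 and 6 had 16, 16 and 1 higher, and compound 4 had 1 lower. Over all genes the block gave 1699, 1429 and 68 calls.

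Receptors upstream of NF-κB were among the genes that rose. TNFRSF12A, the receptor of the cytokine TWEAK, went from 37.1 and 30 CPM with DMSO to 89.7 and 122 CPM with compound 4 and 98.5 and 71.2 CPM with compound 5 (log2 1.66 and 1.33, edgeR adjusted p = 0.0056 and 0.014). LTBR, the lymphotoxin receptor that signals through RELB, rose by 0.75 and 0.82 (edgeR adjusted p = 0.0054 and 0.0047), and TNFRSF1A, the main receptor of tumour necrosis factor, by 0.67 and 0.57 (adjusted p = 0.0097 and 0.019). In all, 3 of the 8 receptors tested rose with each of compounds 4 and 5, beside 5.6% and 5.35% of all genes tested. With compound 6, 0 of 8 were called, beside 0.575% of all genes, so nothing is read from that count. There TNFRSF12A, LTBR and TNFRSF1A were at 1.2, 0.55 and 0.54 (edgeR adjusted p = 0.056, 0.054 and 0.058). TNFRSF12A overlaps CLDN6 on the other strand.

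Of all genes tested, 5.6% rose with compound 4 and 5.35% with compound 5. Among inhibitors, 2 of the 12 tested rose with compounds 4 and 5. They were BCL3 (log2 0.63 and 0.59, edgeR adjusted p = 0.027 and 0.036), a nuclear IκB protein that can also activate transcription, and TAX1BP1 (0.77 and 0.71, adjusted p = 0.0084 and 0.013), an adaptor of TNFAIP3. NFKBIA and TNFAIP3 themselves were in this list and were not called. Of 10 other NF-κB targets tested, ICAM1 included, 4 rose with compound 4 and 3 with compound 5. IER3, an early stress response gene, was at 81 and 81 CPM with DMSO, 189 and 182 CPM with compound 4, 358 and 235 CPM with compound 5, and 122 and 194 CPM with compound 6. IER3 rose by 1.19 and 1.87 with compounds 4 and 5 (edgeR adjusted p = 0.015 and 0.0047). BCL2L1, which protects cells from apoptosis, rose by 0.89 and 0.9 (edgeR adjusted p = 0.0093 and 0.011), and GADD45B, a stress response gene, by 1.37 with compound 4 (adjusted p = 0.0097). VCAM1, SAA1 and SAA2 were at 0 in all libraries, and IER3 and BCL2L1 overlap IER3-AS1 and ABALON.

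The receptors and signalling genes of the member cytokines gave 4 of 11 tested genes that rose with compound 4 and 3 of 11 with compound 5. Beside these, 5.6% and 5.35% of all genes tested rose. SOCS3, the feedback inhibitor that interleukin 6 family cytokines induce, was at 1.64 and 0.67 CPM with DMSO, 5.25 and 5.17 CPM with compound 4, 5.85 and 2.85 CPM with compound 5, and 4.91 and 4.55 CPM with compound 6. SOCS3 rose by 2.06 and 1.78 with compounds 4 and 5 (edgeR adjusted p = 0.019 and 0.036), with 1.92 for compound 6 (adjusted p = 0.072). It had 8 to 16 counts with DMSO and passed the filter only through the treated groups, so these p are given as a description. SOCS3 is included in the counts of this list. IL6R, the interleukin 6 receptor, rose by 1.26 and 0.97 (edgeR adjusted p = 0.0039 and 0.0098), and OSMR, a receptor subunit of oncostatin M named after its values were seen, by 0.74 with compound 4 (adjusted p = 0.018). CCR6, the receptor of CCL20, was at 26.4 and 27.7 CPM with DMSO, 68.1 and 66.8 CPM with compound 4, 70.2 and 58 CPM with compound 5, and 42.6 and 34.5 CPM with compound 6. CCR6 rose by 1.31 and 1.24 with compounds 4 and 5 (edgeR adjusted p = 0.0023 and 0.0031). Z94721.2 shares exon positions with CCR6 on the same strand, so its count is uncertain. CSF1R, CXCR1 and CXCR2, the receptors of CSF1 and CXCL8, were at 0 in every library.

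**Figure D4:**
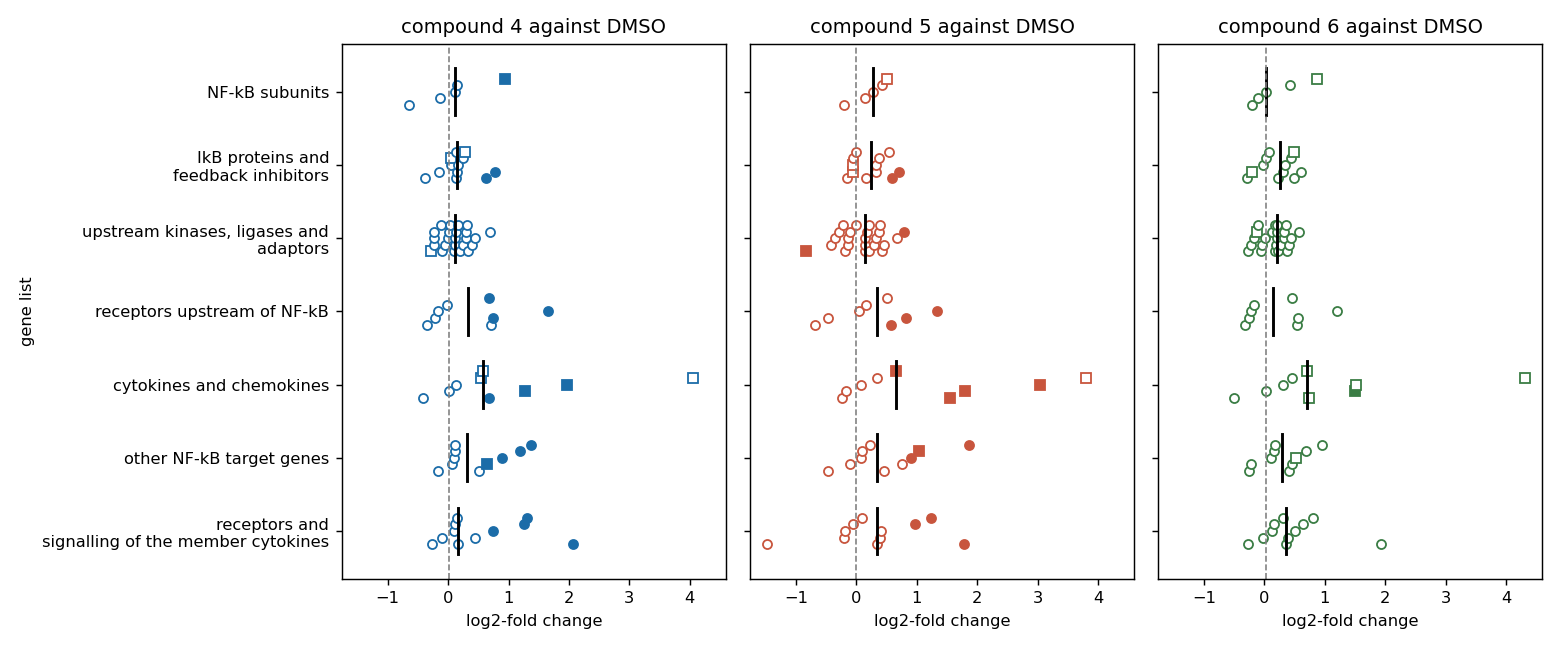
Log2-fold change against DMSO of each tested gene in 7 lists of NF-κB and cytokine signalling, 1 panel per compound, with squares for the 10 members, circles for other genes, filled symbols for an adjusted p under 0.05 and vertical bars at list medians. In the list of cytokines and chemokines 9 of 25 genes were tested, with medians of 0.58, 0.66 and 0.71. These include CXCL8 and IL11, which passed the filter only through the groups in which they were high, so the medians are a description. With compound 6 CSF1 is the only filled symbol.

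Stromal and endothelial markers were checked beside these results, since such cells make several of the cytokines. Of 5 stellate cell and fibroblast markers, 4 had under 10 counts in all 8 libraries, and the summed level of the list was 5.11 to 9.22 CPM with DMSO, 23.3 to 25.4 CPM with compound 4, 7.63 to 11.4 CPM with compound 5 and 14.3 to 14.6 CPM with compound 6. This sum came almost wholly from PDGFRB, which rose with compound 4 (log2 1.77, edgeR adjusted p = 0.0063). Of 5 endothelial markers 4 had under 10 counts, with sums of 0.91 to 2.18 CPM.

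The second question was whether the compounds differed from each other. Their structures differ by tert-butyl groups in compounds 4 and 5, cyclohexyl groups in compound 6, and an ethane in place of a methylene bridge in compound 5. The 3 pairs were compared in the same fit, and since the concentrations were not identical, a difference in response and one in concentration cannot be told apart. Of the 10 members, 0 were called in any pair by edgeR, against 0.313% of all genes for compound 4 against 5 (0.187% higher and 0.127% lower), 0% for 4 against 6 and 1.03% for 6 against 5 (0.507% higher and 0.522% lower). CXCL8 and IL11 passed the filter only through the groups in which they were high. Of the other 8 members, 4, 1 and 4 had an unadjusted p under 0.05, beside 16.2%, 7.05% and 18.5% of all genes tested. DESeq2 called 1 of the 10 (CXCL8, given as a description), 0 and 2 (CCL20 and ICAM1). Over all genes, compound 4 against 6 had 945 at an unadjusted p under 0.05, and DESeq2 called 60.

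The differences nearest to the threshold were those of compound 6 against compound 5. CCL20 was lower with compound 6 by a log2 difference of -1.09 (95% interval -1.59 to -0.6, edgeR adjusted p = 0.053), and was called with the replicate block (adjusted p = 0.032) and, at -1.42, without compound 5 replicate 2 (adjusted p = 0.022). ICAM1 differed by -0.51 (-0.81 to -0.22, edgeR adjusted p = 0.09, and 0.028 with the block). Both libraries of compound 6 were below both of compound 5 for these genes. TNFAIP3 and BIRC3 had the opposite sign, 0.55 (0.27 to 0.83, edgeR adjusted p = 0.068) and 0.72 (0.25 to 1.19, adjusted p = 0.12). CCR6 was the 1 further pathway gene called between compounds, lower with compound 6 than with compound 5 (-0.73, -1.04 to -0.42, edgeR adjusted p = 0.045), with an adjusted p of 0.041 to 0.19 when single libraries were left out.

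Between compounds 4 and 5, CXCL8 was lower with compound 4 by -2.46 (95% interval -3.93 to -0.99, edgeR adjusted p = 0.14), with no overlap of the libraries. Since CXCL8 was tested only because it was high in some groups, these values are given as a description. The share of all genes separated in this way was not computed. ICAM1 differed by -0.39 (-0.69 to -0.1), CCL20, whose libraries overlapped, by -0.53 (-1.02 to -0.04), TNFAIP3 by 0.35 (0.07 to 0.63) and BIRC3 by 0.55 (0.08 to 1.01). Between compounds 4 and 6, which share the methylene bridge, the intervals of the members other than CCL20 reached or included 0. Those of LIF (-0.57 to 0.19), ICAM1 (-0.18 to 0.41) and RELB (-0.47 to 0.6) reach no further than 0.6 from 0 on the log2 scale, whereas the interval of IL11 (-2.76 to 2.24) is the widest. CCL20 was higher with compound 4 than with compound 6 by 0.57 (0.07 to 1.06, edgeR adjusted p = 0.61).

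**Figure D5:**
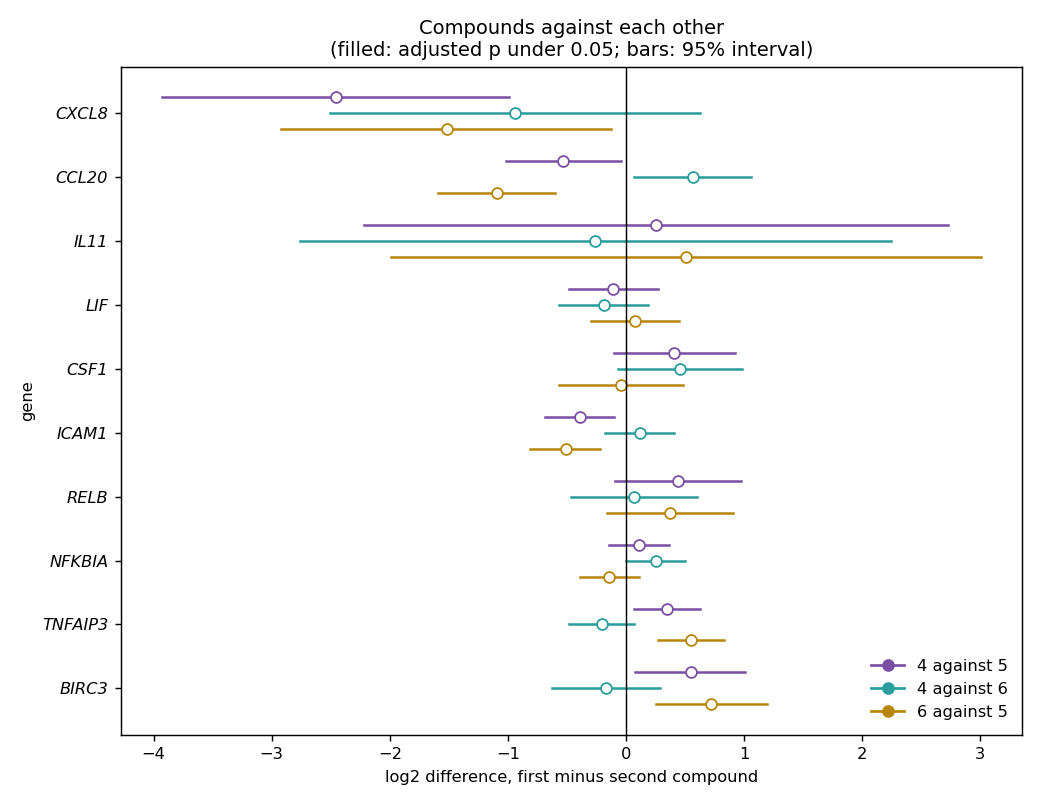
Log2 difference between pairs of compounds, first minus second, for each gene (points) with its 95% interval (bars). No point is filled, since no member has an adjusted p under 0.05, and the bars of CXCL8, CCL20, ICAM1, TNFAIP3 and BIRC3 for compound 6 against compound 5 do not reach 0. CXCL8 and IL11 passed the filter only through the groups in which they were high, so their bars are a description.

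The genes whose pattern over the 8 libraries was most like that of IL11 were SLC22A15, ZSCAN32 and SMURF2 (Pearson r = 0.98 each), GTPBP2 and CLCN3 (0.97 each), in log2 CPM with 0.5 added. For CXCL8 they were FOXJ3 (0.99), IK, RINT1, ARHGEF7 and GCC1 (0.98 each). The ranges of these genes were much narrower than those of IL11 and CXCL8, for instance 15.9 to 20.1 CPM for ZSCAN32 and 45.2 to 67 CPM for FOXJ3. These are the highest of 13400 correlations over libraries that share groups and replicate numbers, and are given as a description. Ordered by level per exon kilobase with DMSO, the members ran from CCL20 (107 CPM per kilobase) through NFKBIA (35.2), ICAM1 (29.5), LIF (6.12), TNFAIP3 (5.43), RELB (1.17), BIRC3 (1.12) and CSF1 (0.869) to CXCL8 (0.178) and IL11 (0.0505). Neighbours RELB and BIRC3 (1.08 to 1.27 and 1 to 1.24) overlapped. With compound 5 ICAM1 (60.3) stood above NFKBIA (33.9), the reverse of their order with DMSO, and CXCL8 (2.06, with 0.901 in 1 library and 3.22 in the other) overlapped IL11, RELB and CSF1.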

How the data were processed

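mRNA of 8 samples in 4 groups of 2 was sequenced in paired ends on a NextSeq instrument, after a directional library preparation. The column names of DMSO replicate 1 and compound 4 replicate 1 carry the word merged, and what was merged is not stated. The authors checked reads with FastQC 0.12.0, estimated transcript abundance with Salmon 1.5.0 on a GENCODE index (GRCh38), collapsed it to genes with tximeta and deposited estimated counts, rounded and not normalized, for 60230 genes. Estimated counts of genes that share sequence or overlap can be split between them, and whether counting used the strand is not given in the sources used here. The authors' own tests used DESeq2 1.38.3, and cytotoxicity, flow cytometry and docking were not analysed here.

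Symbols came from a gene name table for 60089 identifiers and from GENCODE 29 for 124, and positions and exon lengths from GENCODE 29. All 8 samples were fitted together in edgeR 4.0.16 (R 4.3.3) with TMM factors, filterByExpr at a minimum count of 10 and no block. The quasi-likelihood test was followed by Benjamini-Hochberg adjustment over 13400 genes at a threshold of 0.05. There were 3 comparisons of a compound with DMSO and 3 between compounds. With 2 against 2, no permutation test could pass the threshold, and none was run. The SE was the log2-fold change divided by the square root of F, and intervals are 95%. The script was tested on simulated data. Between the replicates of each group the mean chi-square per gene was 8.42 to 19.7, above counting noise, so no library was treated as a repeat of another.

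The labels give day 1 and day 2 in each group, while the methods give 24 h for every group. Whether a day number was the same day across groups is not stated. The deviations of same-numbered replicates had a correlation of -0.16 to 0.3 over the 6 pairs of groups, and a fit with the replicate block was an alternative. The others were the Wald test of DESeq2 1.42.0, its size factors in edgeR, no filter, at least 10 counts in every sample, only the 4 samples compared, and leaving out each library or replicate number.

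The members, the 7 pathway lists and the marker lists were chosen with earlier results of these data known. Named genes were the members, the subunits and IκB kinases, up to 3 called genes at each end of each pathway list and comparison, and the 5 genes most correlated with each of the 2 members of widest range. A called gene that this rule names in the upstream list is not reported here. Promoter sequences came from RefSeq (GRCh38.p14), and plots from matplotlib 3.10.9 (Python 3.11.15).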

Additional observations from a re-analysis of the deposited data

How the results depend on the processing

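Of the calls against DMSO, those of CCL20, CSF1 and ICAM1 with compounds 4 and 5 held under every alternative that kept all 8 libraries or the 4 compared. Member counts in this section are over those of all 10 that were tested, CXCL8 and IL11 included. In the main fit these genes passed the filter only through the groups in which they were high. All genes tested had 2383, 2431 and 1355 calls with compounds 4, 5 and 6 without the filter on low counts. There 7 members, IL11 among them, were called with compound 6. Between compounds, no filter gave 750 calls over all genes and 2 members for 4 against 5, 259 and 1 for 4 against 6, and 990 and 4 for 6 against 5. DESeq2 gave 518 genes and 4 members with compound 6, 194 and 1 for 4 against 5, 60 genes for 4 against 6, and 370 and 2 for 6 against 5. With DESeq2's size factors compound 6 had 47 genes and 0 members. At least 10 counts in every sample gave 198 genes with compound 6, 65 for 4 against 5, 5 for 4 against 6, and 1 member for 6 against 5. With only the 4 samples compared, compound 6 had 1023 genes and 5 members, 4 against 5 had 10 genes and 6 against 5 had 49.

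The replicate block treats samples with the same day number as pairs. With it 4 against 5 had 128 genes, 4 against 6 had 1, and 6 against 5 had 269 genes and 2 members. The block turned the difference of IL11 to -0.56 for 4 against 5 and to -0.22 for 6 against 5. It changed no call of a member other than those given with the results. A crossed block for 4 against 5, chosen after seeing the data because the correlation was -0.16, gave 76 genes and 1 member, with -0.36 for IL11.

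When single libraries were left out, 0 to 5, 0 to 6 and 0 to 3 of the 10 members were called with compounds 4, 5 and 6, and 0 to 1 for 6 against 5. All genes ranged from 43 to 1681, 46 to 1814 and 2 to 432 against DMSO, and from 9 to 25, 0 to 13 and 0 to 105 for 4 against 5, 4 against 6 and 6 against 5. Leaving out a library or a replicate number turned the sign of these log2-fold changes, given as their range. With compound 4 they were NFKBIA (-0.07 to 0.16), CXCL8 (-0.37 to 1.08), IL11 (-0.22 to 4.97) and NFKB2 (-0.06 to 0.32). With compound 5 it was NFKBIA (-0.15 to 0.01). With compound 6 they were BIRC3 (-0.46 to 0.18), REL (-0.3 to 0.11) and RELA (-0.1 to 0.15). For 4 against 5 they were NFKBIA (-0.04 to 0.27), IL11 (-4.49 to 2.04), LIF (-0.42 to 0.21), CSF1 (-0.02 to 0.78) and CCR6 (-0.06 to 0.22). For 4 against 6 they were RELB (-0.07 to 0.2), BIRC3 (-0.32 to 0.01) and IL11 (-4.52 to 2.26), and for 6 against 5 IL11 (-2.57 to 2.25), LIF (-0.26 to 0.42) and CSF1 (-0.4 to 0.28). None of these passed the test. The cause of these shifts was not tested, apart from the fewer samples in each fit. Leaving out a replicate number left 1 sample a group, so only values without a test were computed there. The 3 and 9 counts of IL11 and CXCL8 with DMSO limit how exactly their changes can be given.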
